A study of Mus musculus with 9 samples.

Results

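Expression of 39 listed genes of glycolysis, the pentose phosphate pathway and the hypoxia response was followed in cultured mouse bone marrow cells before and after transformation by KMT2A-MLLT1, a leukaemia fusion protein also known as MLL-ENL. The genes were taken by symbol, and those with at least 10 raw counts in 3 or more libraries were used. That left 38 of the 39, out of 21159 genes in the count table; Eno2, a neuronal enolase, was at 0 to 1.62 CPM (tag counts scaled to library size) and was left out. All 38 entered the test across 11196 genes.

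Each of the 9 libraries came from lineage-depleted bone marrow cells of genotype Runx2fl/fl CreERT2tg/+, that is, with both alleles of the transcription factor gene Runx2 floxed and with a Cre recombinase that 4-hydroxytamoxifen (4-OHT) switches on. The growth protocol, which the labels repeat for every library, has cells that received a retrovirus for the fusion and eGFP, were kept for a day with IL-3, IL-6 and stem cell factor, and then formed colonies in methylcellulose over repeated platings. RNA of the untreated BM progenitor group was taken ahead of the first replating. The transformed cells were those grown in suspension following the second replating, and were given ethanol (Runx2wt) or 400 nM 4-OHT for 24 hours (Runx2ko). Each group held 3 libraries, which the labels call independent biological replicates. Other labels call only the 2 later groups transformed, so it is unclear if the BM progenitor RNA came from cells with the fusion. Neither the promoter driving Cre nor the age of the mice is given. BM progenitor cells differ from the transformed groups also in passage number and in growth on semisolid medium, and 4-OHT with active Cre is present in every Runx2ko library, so within each comparison these cannot be told apart from the fusion or from loss of Runx2. The extraction protocol speaks of T-ALL cells, a leukaemia of T cells, and which cells it refers to is not settled. T and B lymphocyte markers summed to 11.1 to 40.3 CPM in the 9 libraries.

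Glycolysis splits glucose to pyruvate. Glucose transporters and hexokinases bring glucose in and trap it, aldolase cleaves the sugar, and lactate dehydrogenase and monocarboxylate transporters turn pyruvate into lactate and carry it across the membrane, while pyruvate dehydrogenase kinases hold pyruvate back from the mitochondria. The pentose phosphate pathway branches off at glucose 6-phosphate and supplies NADPH and ribose. The transcription factor subunit HIF-1α, marked for destruction by prolyl hydroxylases while oxygen is present, raises many of these genes in hypoxia by binding DNA at the core ACGTG or GCGTG, and marrow is known as a tissue of low oxygen.

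To show where these letters lie in the genes studied, 4 promoters were read from RefSeq windows (build GRCm38.p6), without any base inside an annotated exon. Bnip3, Hk3 and Pdk1 passed the test against BM progenitor, and Ldha did not; they were chosen after their values were seen. Capitals mark ACGTG or GCGTG on either strand, with overlapping matches run together.
Bnip3, chr7:138909520-138909756, minus strand: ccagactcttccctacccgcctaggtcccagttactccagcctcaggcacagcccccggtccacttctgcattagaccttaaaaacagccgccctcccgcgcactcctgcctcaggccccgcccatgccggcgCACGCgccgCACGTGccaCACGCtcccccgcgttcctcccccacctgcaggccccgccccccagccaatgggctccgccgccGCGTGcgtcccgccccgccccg
Hk3, chr13:55021386-55021635, minus strand: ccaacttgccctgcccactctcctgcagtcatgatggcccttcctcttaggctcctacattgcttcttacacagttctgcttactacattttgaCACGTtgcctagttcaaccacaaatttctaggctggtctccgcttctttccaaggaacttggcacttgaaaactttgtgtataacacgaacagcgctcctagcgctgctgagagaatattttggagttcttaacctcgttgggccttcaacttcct
Pdk1, chr2:71872974-71873223, plus strand: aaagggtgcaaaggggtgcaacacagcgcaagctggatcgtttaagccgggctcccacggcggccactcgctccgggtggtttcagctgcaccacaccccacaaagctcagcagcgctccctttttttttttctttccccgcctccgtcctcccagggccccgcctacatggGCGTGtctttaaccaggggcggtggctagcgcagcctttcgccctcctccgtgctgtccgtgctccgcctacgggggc
Ldha, chr7:46845554-46845803, plus strand: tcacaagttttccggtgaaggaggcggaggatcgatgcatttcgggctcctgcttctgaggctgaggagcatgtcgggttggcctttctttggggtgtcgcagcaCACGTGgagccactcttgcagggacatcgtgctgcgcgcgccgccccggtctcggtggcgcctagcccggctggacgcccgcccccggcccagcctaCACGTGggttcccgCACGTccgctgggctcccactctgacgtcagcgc
Each is written 5′ to 3′ on its gene's strand. The Bnip3, Hk3 and Pdk1 stretches lie upstream of every annotated transcript of the gene. The Ldha stretch lies upstream of the RefSeq Ldha start, inside an intron of 1 longer annotated transcript. Bnip3 had 4 separate marked stretches, beginning between 117 and 35 bases before the RefSeq start, and Ldha had 3, between 145 and 34 bases before it. Hk3 had 1 stretch at 156 bases and Pdk1 had 1 at 78 bases. CACGTG, which holds ACGTG on both strands and is the E-box bound by MYC and USF factors, occurred at 2 places in Ldha and 1 in Bnip3.

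The motif search took the 250 bases before each RefSeq start, on both strands, and a gene with several starts counted as holding a motif when any of its windows did. RefSeq windows matched 37 of the 38 genes by symbol. ACGTG or GCGTG was found in 35 of the 37 (94.6%), against 62.6% of 8479 tested genes with a window and 41.5% of all 27025 genes with one. ACGTG alone was in 20 of them (54.1%), against 25.7% of tested genes. TGTGGT, the core that RUNX factors bind, was in 7 of them (18.9%), against 13.0% of tested genes. Either hypoxia core was present in all 10 genes that passed against BM progenitor in at least 1 comparison and in 25 of the other 27 (92.6%). TGTGGT was present in 4 of the 10 (40.0%) and in 3 of the 27 (11.1%). Neither split was tested. A match here is a run of letters and was not measured as a bound site.

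Library totals ran from 3118594 to 5348177 counts. Runx2ko replicate 1 differed most from the rest: across genes, its correlations of log2 CPM with the other 8 libraries were 0.793 to 0.841, while the best correlation of each other library was 0.946 to 0.978. Mast cell and basophil markers, of which 14 of 15 were in the table, summed to 4730 CPM in that library, against 97.8 and 592 CPM in Runx2ko replicates 2 and 3, 118 to 361 CPM in Runx2wt and 1140 to 1280 CPM in BM progenitor. The 13 monocyte and macrophage markers summed to 633 CPM there, 5470 and 11600 CPM in the other Runx2ko libraries, 6970 to 13100 CPM in Runx2wt and 4350 to 6240 CPM in BM progenitor. Of these, Lyz2 alone was at 3740, 5170 and 10700 CPM in Runx2wt and 3800, 2700 and 3550 CPM in BM progenitor. Csf1r was at 88.4, 139 and 322 CPM in Runx2wt and 173, 152 and 147 CPM in BM progenitor. Unlike the sum, each of these genes overlapped between the groups. The 13 neutrophil markers summed to 12100 to 16400 CPM in BM progenitor, 1410 to 4350 CPM in Runx2wt and 809 to 10500 CPM in Runx2ko. Eosinophil markers, 8 of 9 in the table, summed to 1380 to 1840 CPM in BM progenitor and to 2.49 to 18.1 CPM in the transformed libraries, and Epx, Ear1, Ear2 and Ccr3 were at 0 in all Runx2wt libraries. The part of cell composition in the results below was not tested, and in bulk RNA a smaller share of a cell type and less RNA per cell cannot be told apart. Runx2 itself was at 53.3, 46.7 and 58.8 CPM in BM progenitor, 159, 179 and 131 CPM in Runx2wt and 21.0, 120 and 135 CPM in the libraries labelled Runx2ko; the floxed exon is not named in the labels, so 3′ tags do not check the deletion.

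Most genes of this set that passed the test against BM progenitor were higher after transformation. Of the 38, 9 rose in Runx2wt against BM progenitor and none fell (edgeR quasi-likelihood F-test, Benjamini-Hochberg adjusted p under 0.05 over all 11196 genes), where 8.28% of all tested genes rose and 5.23% fell, or 13.5% in either direction. The 9 were the hexokinases Hk1 and Hk3, the aldolases Aldoa and Aldoc, the regulators Pfkfb3 and Pdk1, and the hypoxia genes Bnip3, Hif1a and Vegfa. In Runx2ko against BM progenitor, 8 rose and 1, Ldhb, fell (edgeR, same test), where 10.0% of all tested genes rose and 7.14% fell, or 17.2% in either direction. Ldhb had met the count rule for the set only through its BM progenitor libraries. These 8 were the same genes as above without Aldoa. Both comparisons use the same 3 BM progenitor libraries. The median log2 difference of the 38 from BM progenitor was 0.29 in Runx2wt and 0.15 in Runx2ko, beside 0.01 and 0.07 over all tested genes.

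The number that rose depended on which libraries were fitted. In Runx2wt it was 3, 2 and 2 without BM progenitor replicates 1, 2 and 3, where 1.84%, 1.41% and 1.1% of all tested genes rose, and 4 without Runx2wt replicate 2, where 2.39% did. It was 11 higher with 4 lower without Runx2ko replicate 1, where 15.9% of all tested genes rose and 12.1% fell. In Runx2ko it was 4, 3 and 3 without BM progenitor replicates 1, 2 and 3, where 2.62%, 2.2% and 1.96% of all tested genes rose, and 5 without Runx2ko replicate 2, where 8.29% did. It was 11 higher with 2 lower without Runx2ko replicate 1, where 15.9% of all tested genes rose and 12.6% fell. DESeq2 passed 10 higher and 2 lower in Runx2wt (9.27% and 6.76% of all genes it tested) and 8 higher and 2 lower in Runx2ko (9.96% and 7.43%). It gave no adjusted p for Slc2a3 in any comparison. With only the 6 compared libraries in the edgeR fit, 12 rose and 5 fell in Runx2wt (17.8% and 16% of all tested genes) and 7 rose and 1 fell in Runx2ko (6.69% and 4.92%). At an unadjusted p under 0.05 there were 15 of the 38 in Runx2wt and 14 in Runx2ko, against 31.8% and 33.5% of all tested genes. Without regard to any test, 15 genes were higher in every Runx2wt library than in every BM progenitor library and 6 were lower in every one, where such separation was seen in 24.8% of all tested genes upward and 24.5% downward. For Runx2ko these counts were 11 and 5, against 19.5% and 18.8%.

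**Figure D1:**
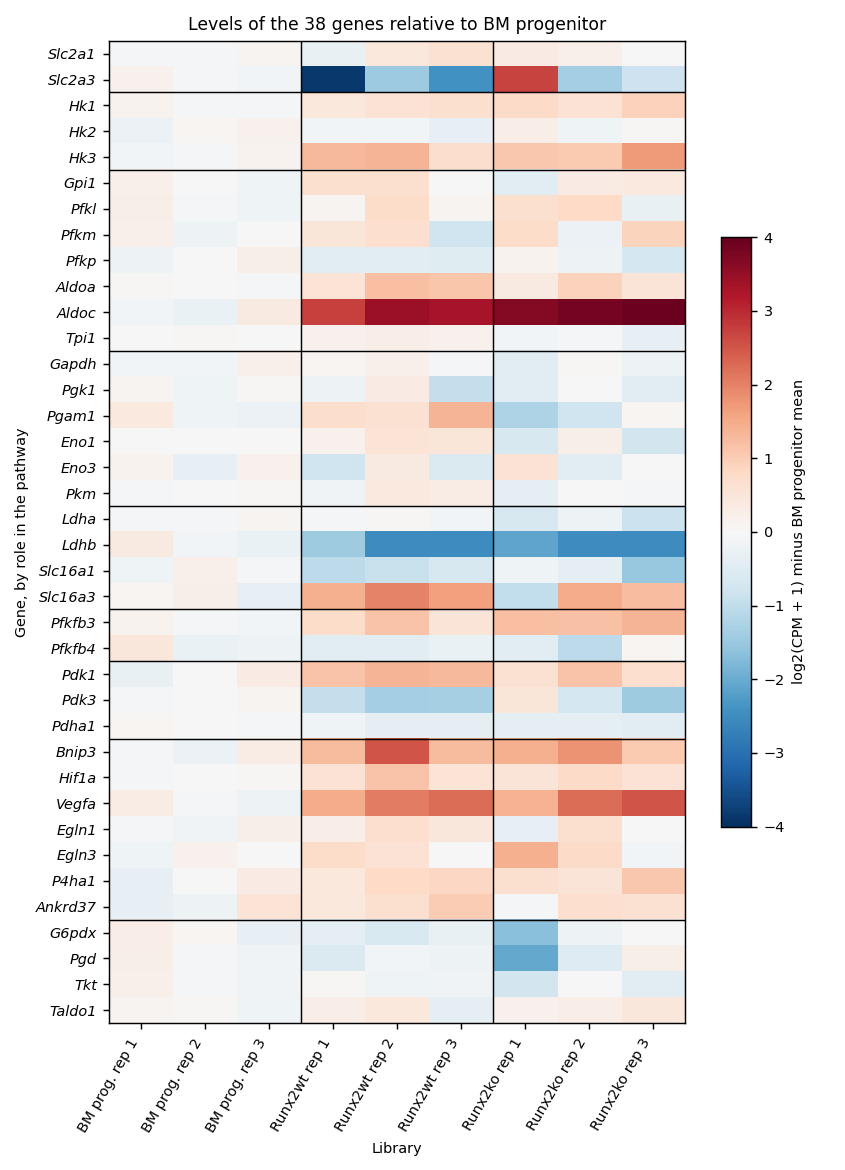
Colour gives log2(CPM + 1) of each of the 38 genes (rows, grouped by role) in each of the 9 libraries (columns), minus the mean of the 3 BM progenitor libraries, on a scale from -4 to 4. Aldoc, Vegfa and Bnip3 are above BM progenitor in all 6 transformed libraries, and Slc2a3, Pdk3, Slc16a3 and Pgd in Runx2ko replicate 1 depart from the other transformed libraries.

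Between the transformed groups no gene of the set passed. In Runx2ko against Runx2wt, 0 of the 38 and 0 of 11196 genes (0.0%) had an edgeR adjusted p under 0.05. At an unadjusted p under 0.05 there were 6 of the 38 (Slc2a3, Aldoc, Tpi1, Pgam1, Eno1 and Ldha), against 7.91% of all genes. DESeq2 passed 0 of the 38 (0.299% of all genes it tested higher and 0.111% lower), but it gave no adjusted p for Slc2a3. With edgeR, leaving out Runx2ko replicate 1, 0 of the 38 passed (0.0172% and 0.0258% of all genes). Slc2a3, Aldoc and Pfkfb3 were higher in every Runx2ko library than in every Runx2wt library, and Tpi1, Pgam1, Ldha and Pdk1 lower, where 4.95% and 4.73% of all tested genes separated in these directions. In simulated counts the same comparison recovered 25.5% of genes changed by 2-fold and 63.3% of those changed by 4-fold, so differences of that size in single genes can go undetected with 3 libraries a group.

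**Figure D2:**
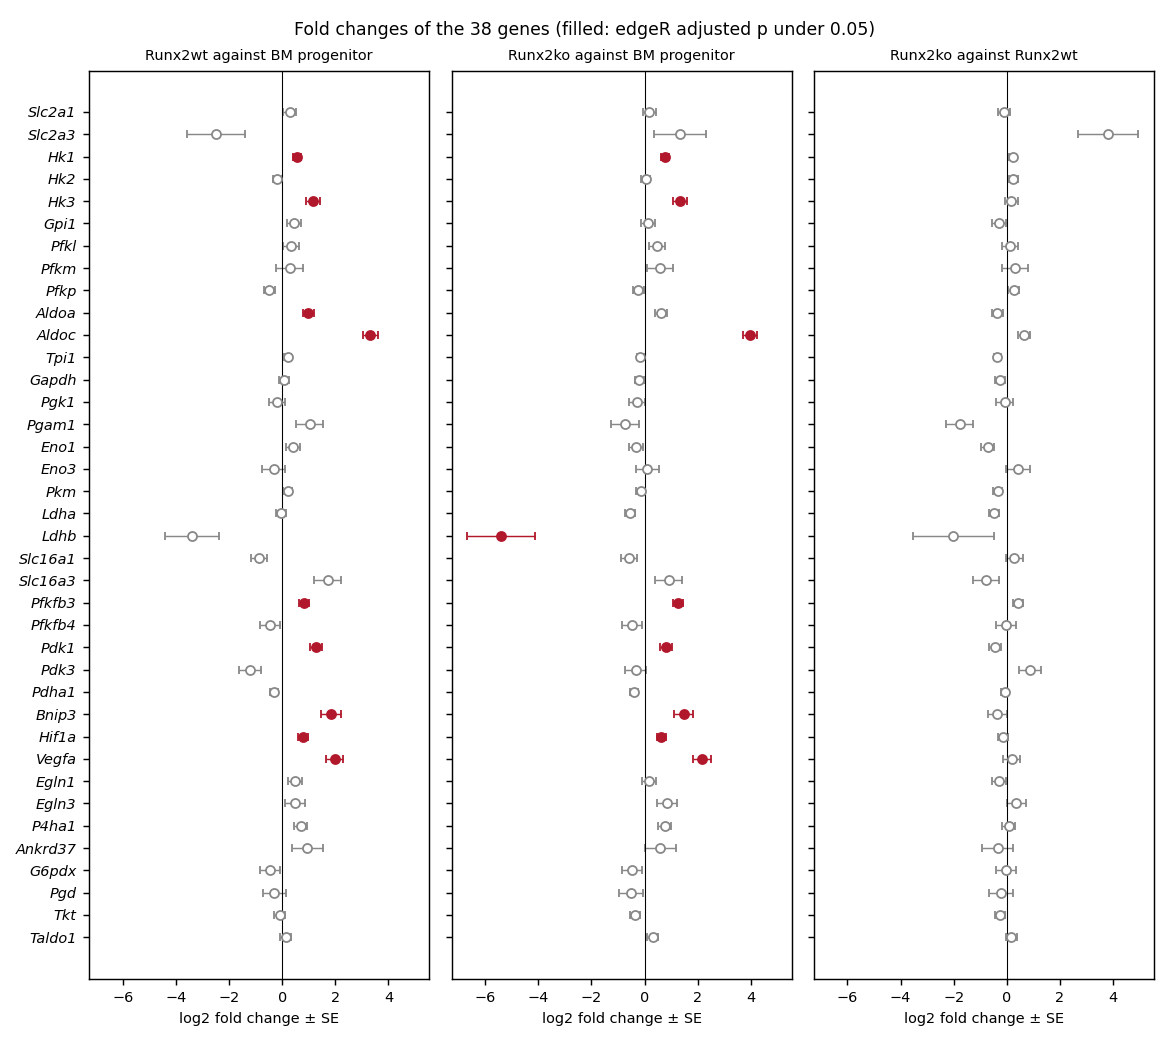
Points give the fitted log2 fold change of each of the 38 genes with its standard error (bars), in Runx2wt against BM progenitor, Runx2ko against BM progenitor and Runx2ko against Runx2wt, and filled points passed at an edgeR adjusted p under 0.05. Filled points number 9 in the left panel, 9 in the middle panel and 0 in the right panel, and Ldhb is the filled point below 0.

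Of the glucose transporters, neither passed. Slc2a1, which encodes GLUT1, the carrier of basal glucose uptake in many cells, was at 32.5, 31.6 and 36.3 CPM in BM progenitor, 27.1, 44.6 and 51.7 CPM in Runx2wt and 42.4, 38.4 and 33.3 CPM in Runx2ko, with the 3 groups overlapping. Slc2a3, which encodes GLUT3, a carrier of high glucose affinity known from neurons and blood cells, was at 36.9, 31 and 30.2 CPM in BM progenitor and at 1.32, 11.4 and 5.29 CPM in Runx2wt. In Runx2ko it was at 218 CPM in replicate 1 and at 12.0 and 17.9 CPM in replicates 2 and 3. Slc2a3 was thus lower in all Runx2wt libraries than in BM progenitor, while the Runx2ko libraries lay on both sides of it. The log2 difference of Runx2wt from BM progenitor was -2.49 (SE 1.10, edgeR adjusted p = 0.153), and its adjusted p was 0.00475 without Runx2ko replicate 1. The log2 difference of Runx2ko from Runx2wt was 3.82 (SE 1.13, edgeR adjusted p = 0.579), and 1.36 without that library. That of Runx2ko from BM progenitor was 1.33 and turned to -1.14 without that library, so its direction rested on it. In the same library, besides the mast cell and basophil marker sum of 4730 CPM, megakaryocyte markers summed to 810 CPM (19.9 to 73.5 CPM in the other 8), erythroid markers to 923 CPM (169 to 338 CPM) and stem and progenitor markers to 1370 CPM (385 to 841 CPM). The stem and progenitor list shares Gata2 and Kit with the mast cell and basophil list, so these 2 sums are not separate. Gata2 alone was at 567 CPM in that library and Kit at 52.4 CPM. Of the megakaryocyte sum there, Itga2b alone gave 688 CPM, so that sum was mostly 1 gene. The part of these markers in the Slc2a3 value was not tested.

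Hexokinases, which phosphorylate glucose, rose in 2 of 3 genes in both transformed groups, where 8.28% and 10.0% of all tested genes rose. Hk1 (ENSMUSG00000037012, GRCm38 chromosome 10, 62268855 to 62379908, minus strand), the broadly expressed form that sits on mitochondria, was at 148, 126 and 130 CPM in BM progenitor (135 ± 11.8, SD, n = 3), 179, 202 and 211 CPM in Runx2wt (197 ± 16.5) and 228, 202 and 254 CPM in Runx2ko (228 ± 26.1). All 6 transformed libraries lay above the 3 BM progenitor libraries. Its log2 difference from BM progenitor was 0.55 in Runx2wt (SE 0.15, edgeR adjusted p = 0.0424) and 0.76 in Runx2ko (SE 0.15, edgeR adjusted p = 0.0133). Hk3 (ENSMUSG00000025877, chromosome 13, 55005985 to 55021385, minus strand), a form known from blood cells of the myeloid lineage, was at 34.1, 35.6 and 40.8 CPM in BM progenitor, 92.2, 94.8 and 59.8 CPM in Runx2wt and 78.0, 77.6 and 122 CPM in Runx2ko. It too was above BM progenitor in 6 of 6 libraries, with log2 differences of 1.16 in Runx2wt (SE 0.25, edgeR adjusted p = 0.0192) and 1.33 in Runx2ko (SE 0.25, edgeR adjusted p = 0.0106). Hk2, the form most often linked to HIF-1 and to tumours, did not pass: it was at 153 to 202 CPM in BM progenitor, 142 to 168 CPM in Runx2wt and 159 to 215 CPM in Runx2ko. Both hexokinase rises were sensitive to single libraries. For Hk1 in Runx2wt the edgeR adjusted p was 0.0932, 0.162 and 0.171 without BM progenitor replicates 1, 2 and 3, 0.0739, 0.128 and 0.105 without Runx2wt replicates 1, 2 and 3, and 0.0514 without Runx2ko replicate 2; for Hk1 in Runx2ko it was 0.072 and 0.0713 without BM progenitor replicates 2 and 3. For Hk3 in Runx2wt it was 0.0834, 0.0858 and 0.0786 without BM progenitor replicates 1, 2 and 3 and 0.0624 and 0.0778 without Runx2wt replicates 1 and 2, and in Runx2ko it was 0.0535, 0.0573 and 0.0506 without BM progenitor replicates 1, 2 and 3.

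The aldolases, which cleave fructose 1,6-bisphosphate, were the genes of upper glycolysis that rose. Aldoc (ENSMUSG00000017390, chromosome 11, 78322968 to 78327781, plus strand), the form first known from brain, was at 5.84, 5.13 and 8.50 CPM in BM progenitor (6.49 ± 1.78, SD, n = 3), 47.6, 77.6 and 71.2 CPM in Runx2wt (65.5 ± 15.8) and 92.8, 103 and 110 CPM in Runx2ko (102 ± 8.65). The 3 groups did not overlap. Aldoc was 10.0-fold higher in Runx2wt than in BM progenitor (log2 difference 3.32, SE 0.27, edgeR adjusted p = 0.000448) and 15.6-fold higher in Runx2ko (log2 difference 3.96, SE 0.27, edgeR adjusted p = 0.000287), and both calls held without each of the 9 libraries in turn. Between the transformed groups its log2 difference of 0.64 (SE 0.23) did not pass (edgeR adjusted p = 0.579).

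Aldoa (ENSMUSG00000030695, chromosome 7, 126795234 to 126800751, minus strand), the form of muscle and of most proliferating cells, was at 576, 558 and 543 CPM in BM progenitor, 820, 1280 and 1220 CPM in Runx2wt and 725, 1060 and 797 CPM in Runx2ko. All transformed libraries lay above BM progenitor, and the transformed groups overlapped. The log2 difference from BM progenitor was 0.98 in Runx2wt (SE 0.21, edgeR adjusted p = 0.0183) and 0.62 in Runx2ko (SE 0.21), short of the threshold (edgeR adjusted p = 0.0644). In Runx2wt the adjusted p was 0.0698, 0.082 and 0.0908 without BM progenitor replicates 1, 2 and 3, and 0.0728 and 0.052 without Runx2wt replicates 2 and 3. In Runx2ko it was 0.0482 without Runx2wt replicate 1 and 0.0219 without Runx2ko replicate 1. Aldoa shares a near-identical 3′ end with 2 other annotated genes, so its count is uncertain if such reads were split.

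The other 5 genes of upper glycolysis did not pass in any comparison. Gpi1, which turns glucose 6-phosphate into fructose 6-phosphate, was at 441 to 566 CPM in BM progenitor, 496 to 777 CPM in Runx2wt and 363 to 657 CPM in Runx2ko. The phosphofructokinases, which make the committed step, were at 29.1 to 39.0, 35.3 to 55.4 and 26.6 to 58.6 CPM for Pfkl, at 5.13 to 7.12, 3.06 to 10.3 and 4.95 to 11.9 CPM for Pfkm and at 124 to 169, 102 to 105 and 87.8 to 157 CPM for Pfkp, in the same order of groups. Tpi1, which interconverts the triose phosphates, was at 266 to 277 CPM in BM progenitor, 303 to 329 CPM in Runx2wt and 217 to 262 CPM in Runx2ko, so that its 3 groups did not overlap. Near-identical 3′ ends in other annotated genes numbered 2 for Tpi1 and 1 for Gpi1.

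Lower glycolysis, from glyceraldehyde 3-phosphate to pyruvate, held 6 measured genes and none passed in any of the 3 comparisons. Pkm, the pyruvate kinase gene and the most highly counted of them, was at 590, 601 and 634 CPM in BM progenitor, 556, 806 and 751 CPM in Runx2wt and 469, 606 and 585 CPM in Runx2ko. Its log2 difference was 0.21 for Runx2wt against BM progenitor (SE 0.17, edgeR adjusted p = 0.431) and -0.14 for Runx2ko (SE 0.17, edgeR adjusted p = 0.623). Gapdh ranged from 128 to 203 CPM over the 9 libraries and Pgk1, phosphoglycerate kinase, from 15.6 to 39.4 CPM. Eno1, the general enolase, was at 73.1 to 73.4 CPM in BM progenitor, 82.8 to 107 CPM in Runx2wt and 43.9 to 86.4 CPM in Runx2ko, and Eno3, the muscle enolase, at 4.89 to 14.6 CPM over the 9 libraries. Pgam1, the phosphoglycerate mutase, was counted at 3.61 to 6.02 CPM in BM progenitor, 7.21 to 12.8 CPM in Runx2wt and 1.29 to 4.61 CPM in Runx2ko, and the Runx2wt libraries were above all others. That separation rests on few reads, at 14 to 33, 26 to 46 and 4 to 17 a library in the same order of groups. Near-identical 3′ ends in other annotated genes numbered 123 for Gapdh, 6 for Eno1 and 5 for Pkm, so their levels are uncertain if the counting dropped or split shared reads.

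In the lactate group the 2 monocarboxylate transporters lay on opposite sides of BM progenitor in Runx2wt. Slc16a3, which encodes MCT4, the exporter of lactate from glycolytic cells, was at 50.7, 56.6 and 38.4 CPM in BM progenitor, 131, 193 and 153 CPM in Runx2wt and 23.6, 136 and 113 CPM in Runx2ko. The Runx2wt libraries were above all BM progenitor libraries, as were Runx2ko replicates 2 and 3, whereas Runx2ko replicate 1 was the lowest of the 9. The log2 difference of Runx2wt from BM progenitor was 1.71 (SE 0.51) with an edgeR adjusted p of 0.0525, which was 0.000182 without Runx2ko replicate 1. Slc16a1, which encodes MCT1, a carrier of lactate in either direction, was at 66.1, 84.7 and 72.0 CPM in BM progenitor, 35.2, 39.4 and 47.0 CPM in Runx2wt and 65.7, 57.1 and 25.2 CPM in Runx2ko; all 6 transformed libraries were below BM progenitor, and the gene did not pass.

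Ldha, the lactate dehydrogenase subunit of muscle and of tumours, was at 644, 658 and 724 CPM in BM progenitor, 636, 691 and 629 CPM in Runx2wt and 432, 585 and 374 CPM in Runx2ko. The Runx2ko libraries were below all 6 others, and the first 2 groups overlapped. Its log2 difference for Runx2ko was -0.54 from BM progenitor (SE 0.18, edgeR adjusted p = 0.0621) and -0.49 from Runx2wt (SE 0.18, edgeR adjusted p = 0.579). Without Runx2ko replicate 2 the first of these had an adjusted p of 0.0167, and DESeq2 gave 0.038. Other annotated genes with a near-identical 3′ end numbered 9 for Ldha.

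Ldhb, the lactate dehydrogenase subunit of heart, was counted at 35, 16 and 18 reads in BM progenitor, 6, 0 and 0 reads in Runx2wt and 1, 0 and 0 reads in Runx2ko. Each BM progenitor library held more reads of it than any transformed library, and a count of 0 allows up to 0.571 to 0.835 CPM in the 4 libraries concerned. Per total count BM progenitor was 63.2-fold above Runx2ko, with an exact 95% interval of 11.0 to 2530 that covers counting error only, and 11.0-fold above Runx2wt, with an interval of 4.82 to 31.1. The fall passed in Runx2ko (fitted log2 difference -5.41, SE 1.27, edgeR adjusted p = 0.0223; with counts this low the fitted value is no bound) and not in Runx2wt (edgeR adjusted p = 0.0539); the difference between these groups was not called (edgeR adjusted p = 0.76). In Runx2ko the adjusted p was 0.0814, 0.076 and 0.0674 without BM progenitor replicates 1, 2 and 3 and 0.0591 and 0.0619 without Runx2ko replicates 2 and 3. Ldhb shares a near-identical 3′ end with 1 other annotated gene.

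Fructose 2,6-bisphosphate, the strongest activator of phosphofructokinase, is made and broken down by the PFKFB enzymes. Pfkfb3 (ENSMUSG00000026773, chromosome 2, 11471433 to 11554077, minus strand), the form with the highest kinase activity, was at 75.9, 65.8 and 63.5 CPM in BM progenitor (68.4 ± 6.60, SD, n = 3), 115, 153 and 97.1 CPM in Runx2wt (122 ± 28.6) and 158, 153 and 175 CPM in Runx2ko (162 ± 11.6). Every transformed library lay above BM progenitor. The log2 difference was 0.83 in Runx2wt (SE 0.19, edgeR adjusted p = 0.0237) and 1.25 in Runx2ko (SE 0.19, edgeR adjusted p = 0.0056), and 0.42 between the transformed groups (SE 0.19, edgeR adjusted p = 0.632). The Runx2ko call held without each of the 9 libraries in turn, while in Runx2wt the adjusted p was 0.0662, 0.102 and 0.115 without BM progenitor replicates 1, 2 and 3 and 0.0543 and 0.0855 without Runx2wt replicates 1 and 2. Pfkfb4 was at 10.3 to 17.5, 8.84 to 10.3 and 5.52 to 13.3 CPM in the 3 groups and did not pass.

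At the entry of pyruvate into the mitochondria, the pyruvate dehydrogenase kinase Pdk1 rose in both transformed groups, while Pdk3 did not pass in any comparison. Pdk1 (ENSMUSG00000006494, chromosome 2, 71873224 to 71903858, plus strand), a kinase known as a HIF-1 target, was at 31.6, 38 and 48.8 CPM in BM progenitor, 86.7, 101 and 97.4 CPM in Runx2wt and 59.2, 86.4 and 62.9 CPM in Runx2ko. The 3 groups did not overlap, with Runx2ko in the middle. The log2 difference from BM progenitor was 1.27 in Runx2wt (SE 0.22, edgeR adjusted p = 0.00984) and 0.82 in Runx2ko (SE 0.22, edgeR adjusted p = 0.0326). The Runx2wt call had an adjusted p of 0.0594 without BM progenitor replicate 2. The Runx2ko call had one of 0.122, 0.121 and 0.0554 without BM progenitor replicates 1, 2 and 3, 0.0523 without Runx2wt replicate 2 and 0.0806 without Runx2ko replicate 2.

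Pdk3, a second kinase of the same complex, was at 107, 111 and 123 CPM in BM progenitor, 58.0, 43.5 and 44.8 CPM in Runx2wt and 161, 68.7 and 41.5 CPM in Runx2ko. Runx2wt was below BM progenitor in 3 of 3 libraries, as were Runx2ko replicates 2 and 3, and Runx2ko replicate 1 was the highest of all 9. The log2 difference of Runx2wt from BM progenitor was -1.22 (SE 0.41, edgeR adjusted p = 0.0755), with an adjusted p of 0.00179 without Runx2ko replicate 1 and 0.0276 without Runx2ko replicate 3. That of Runx2ko was -0.34 (SE 0.40, edgeR adjusted p = 0.6), and -1.04 (adjusted p = 0.00849) without Runx2ko replicate 1. Pdha1, the subunit of the dehydrogenase that these kinases phosphorylate, was at 78.4 to 88.1 CPM in BM progenitor, 64.3 to 73.2 CPM in Runx2wt and 61.0 to 64.7 CPM in Runx2ko and did not pass.

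**Figure D3:**
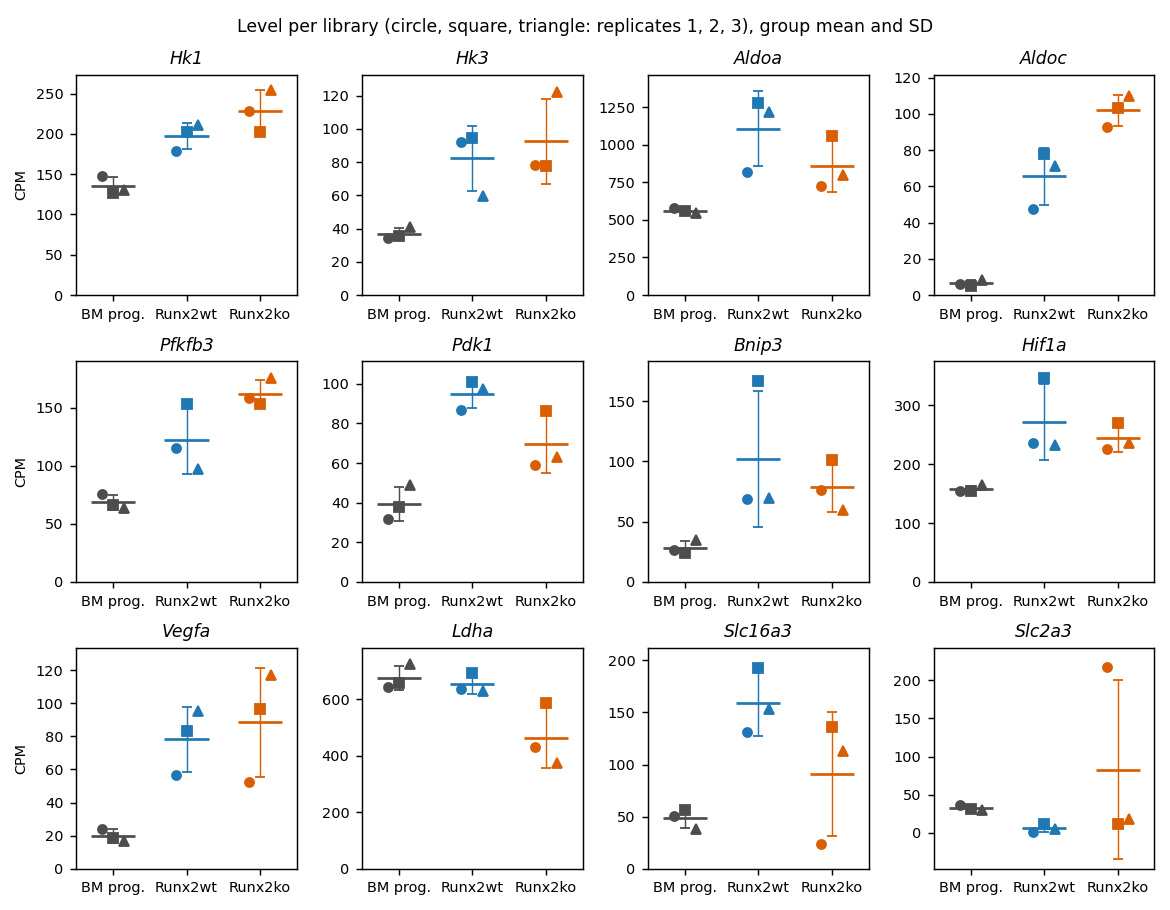
Level in CPM (vertical axes, linear) of 12 genes in each library, with circle, square and triangle for replicates 1, 2 and 3, a line for the group mean and a bar for the SD. Aldoc, Hk1, Hk3, Aldoa, Pfkfb3, Pdk1, Bnip3, Hif1a and Vegfa are higher in all 6 transformed libraries than in BM progenitor, and Slc2a3 reaches 218 CPM in Runx2ko replicate 1 alone (the lower end of that bar lies under 0).

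Of the 7 hypoxia genes, 3 rose in both transformed groups, where 8.28% and 10.0% of all tested genes rose. Vegfa (ENSMUSG00000023951, chromosome 17, 46016993 to 46032369, minus strand), the vascular endothelial growth factor and a classic HIF-1 target, was at 24.3, 18.3 and 16.8 CPM in BM progenitor (19.8 ± 3.95, SD, n = 3), 56.8, 83.1 and 95.1 CPM in Runx2wt (78.4 ± 19.6) and 52.4, 96.5 and 117 CPM in Runx2ko (88.5 ± 32.8). It was higher in 6 of 6 transformed libraries. Vegfa was 3.94-fold higher in Runx2wt (log2 difference 1.98, SE 0.32, edgeR adjusted p = 0.00779) and 4.46-fold higher in Runx2ko (log2 difference 2.16, SE 0.33, edgeR adjusted p = 0.00538). The Runx2ko call held without each library in turn, and the Runx2wt call had an adjusted p of 0.0592 without BM progenitor replicate 3.

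Bnip3 (ENSMUSG00000078566, chromosome 7, 138890836 to 138909519, minus strand), a mitochondrial protein of the BCL2 family that marks mitochondria for autophagy in hypoxia, was at 26.8, 23.7 and 35.0 CPM in BM progenitor, 68.9, 167 and 69.3 CPM in Runx2wt and 76.3, 101 and 59.4 CPM in Runx2ko. All transformed libraries were above BM progenitor, and Runx2wt replicate 2 was the highest. The log2 difference from BM progenitor was 1.83 in Runx2wt (SE 0.38, edgeR adjusted p = 0.0171) and 1.47 in Runx2ko (SE 0.37, edgeR adjusted p = 0.0287). In Runx2wt the adjusted p was 0.0732, 0.082 and 0.0654 without BM progenitor replicates 1, 2 and 3. In Runx2ko it was 0.0991, 0.112 and 0.0743 without the same libraries and 0.0694 without Runx2ko replicate 2. Bnip3 shares a near-identical 3′ end with 4 other annotated genes.

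Hif1a (ENSMUSG00000021109, chromosome 12, 73901375 to 73947530, plus strand), which encodes HIF-1α itself, was at 154, 155 and 164 CPM in BM progenitor, 236, 347 and 232 CPM in Runx2wt and 226, 270 and 236 CPM in Runx2ko. Its level in all 6 transformed libraries was above BM progenitor, and Runx2wt and Runx2ko overlapped. HIF-1α is regulated mainly by its breakdown, which transcript counts do not measure. The log2 difference from BM progenitor was 0.78 in Runx2wt (SE 0.18, edgeR adjusted p = 0.0256) and 0.63 in Runx2ko (SE 0.18, edgeR adjusted p = 0.0433). In Runx2wt the adjusted p was 0.0965, 0.104 and 0.0986 without BM progenitor replicates 1, 2 and 3 and 0.0855 without Runx2wt replicate 2. In Runx2ko it was 0.136, 0.147 and 0.125 without BM progenitor replicates 1, 2 and 3, 0.0575 without Runx2wt replicate 1, and 0.104 and 0.0717 without Runx2ko replicates 2 and 3.

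The other 4 hypoxia genes did not pass. Egln1 and Egln3 encode prolyl hydroxylases that mark HIF-1α for breakdown: Egln1 was at 45.6 to 59.0 CPM in BM progenitor, 60.2 to 81.5 CPM in Runx2wt and 40.1 to 79.5 CPM in Runx2ko, and Egln3 at 19.2 to 24.8, 21.7 to 36.9 and 20.1 to 60.5 CPM. P4ha1, a collagen prolyl hydroxylase, was at 21.9 to 35.3 CPM in BM progenitor and was higher in every transformed library, at 37.8 to 50.4 CPM in Runx2wt and 40.2 to 59.9 CPM in Runx2ko, with edgeR adjusted p-values of 0.0862 and 0.0604. Ankrd37, an ankyrin repeat gene known as a HIF-1 target, was low in all libraries, at 0.912 to 3.89 CPM.

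The 4 pentose phosphate genes did not pass in any comparison. Taldo1, the transaldolase, had the highest mean over all 9 libraries and was at 822, 797 and 687 CPM in BM progenitor, 918, 1030 and 593 CPM in Runx2wt and 862, 930 and 1050 CPM in Runx2ko, where all 3 libraries were above BM progenitor (log2 difference 0.30, SE 0.21, edgeR adjusted p = 0.337). Pgd, which makes NADPH as 6-phosphogluconate dehydrogenase, was at 826 to 1060 CPM in BM progenitor and 613 to 844 CPM in Runx2wt. In Runx2ko it was at 221, 634 and 1070 CPM in replicates 1, 2 and 3, so that replicate 1 lay below the other 6 libraries, replicate 2 among them and replicate 3 just above the highest. G6pdx, the enzyme at the entry of the pathway, was at 65.6 to 100 CPM in BM progenitor, 54.3 to 67.0 CPM in Runx2wt and 25.6, 71.9 and 84.0 CPM in Runx2ko. Tkt, transketolase, was at 386 to 500 CPM, 383 to 445 CPM and 260 to 429 CPM in the 3 groups. G6pdx, Pgd and Tkt each had their lowest value of the 9 libraries in Runx2ko replicate 1.

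The mixture of forms within a family, as the share of a family's counts in each library, differed between the groups for several enzymes. A 3′ tag is read near the end of each transcript, so such shares were not scaled by length. Aldoc made up 0.91% to 1.54% of the aldolase counts in BM progenitor, 5.48% to 5.73% in Runx2wt and 8.83% to 12.1% in Runx2ko, with no overlap between groups. Hk3 made up 10.1% to 11.0% of the hexokinase counts in BM progenitor, 14.5% to 21.0% in Runx2wt and 15% to 21.6% in Runx2ko, while Hk2 made up 45.7% to 54.2%, 34.4% to 38.2% and 33.3% to 41.3%. Both shares in the transformed groups lay outside the BM progenitor range. Pdk1 made up 22.8% to 28.4% of the counts of Pdk1 and Pdk3 in BM progenitor and 59.9% to 69.9% in Runx2wt, and 26.9%, 55.7% and 60.3% in Runx2ko replicates 1, 2 and 3. Slc16a3 made up 34.8% to 43.4% of the counts of the 2 carriers in BM progenitor and 76.5% to 83.1% in Runx2wt, and 26.4%, 70.4% and 81.8% in Runx2ko. For Slc2a3 the shares were 45.4% to 53.2%, 4.64% to 20.3% and then 83.7%, 23.8% and 34.9%. In these last 3 families Runx2ko replicate 1 was apart from Runx2ko replicates 2 and 3. These shares are descriptions of the libraries and were not tested.

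**Figure D4:**
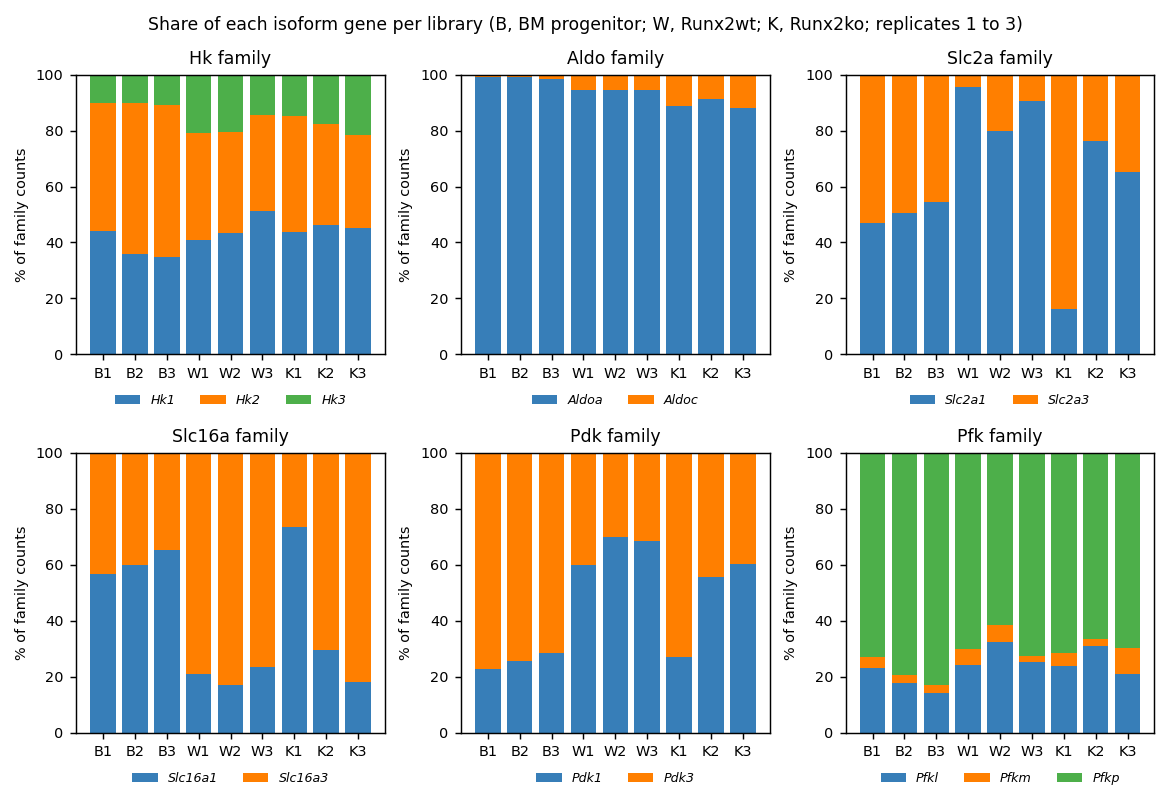
Stacked bars give the percent of each family's counts (vertical axes, 0 to 100) that came from each gene in the 9 libraries, with B for BM progenitor, W for Runx2wt and K for Runx2ko and replicates 1 to 3 in each. The Aldoc share is at most 1.54% in BM progenitor and at least 8.83% in Runx2ko, and Runx2ko replicate 1 (K1) differs from K2 and K3 in the Slc2a, Slc16a and Pdk families.

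Summed over the 38 genes, the set took 0.662% to 0.69% of all counts in BM progenitor, 0.693% to 0.822% in Runx2wt and 0.59%, 0.74% and 0.701% in Runx2ko. The hypoxia genes summed to 295.1 to 335.1 CPM in BM progenitor and to 499.2 to 764.1 CPM in the 6 transformed libraries, and the hexokinases to 335.6 to 371.9 CPM and 412.9 to 563.7 CPM. The lower glycolysis genes summed to 874.4 to 957.4 CPM in BM progenitor and to 681.9 to 1172 CPM in the transformed libraries, and the pentose phosphate genes to 1965 to 2486 CPM and 1369 to 2526 CPM. The first 2 sums did not overlap between BM progenitor and transformed cells, and the last 2 did. No overlap was seen either for upper glycolysis (1463 to 1588 and 1649 to 2620 CPM) or for Pfkfb3 with Pfkfb4 (74.33 to 93.43 and 107.4 to 188.6 CPM). The sums of the glucose transporter, lactate and pyruvate dehydrogenase genes overlapped. Hif1a alone gave 154 to 164 CPM of the hypoxia sum in BM progenitor. Aldoa alone gave 543 to 576 CPM of the upper glycolysis sum in BM progenitor and 725 to 1280 CPM in the transformed libraries. Apart from the aldolases no gene of that group passed, so its sum does not stand for the whole group. These sums were not tested. Among the 6 transformed libraries, Runx2ko replicate 1 held the highest or the lowest value for 21 of the 38 genes (55.3%, beside 57.2% of all tested genes), Runx2ko replicate 3 for 21 (55.3%, beside 37.4%) and Runx2ko replicate 2 for 2 (5.26%, beside 25.6%).

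Further genes of the same pathways were counted from 4 lists. Among 41 tested genes of the hypoxia pathway and its targets outside the set, 6 rose and 2 fell in Runx2wt, and 8 rose and 3 fell in Runx2ko, both against BM progenitor (edgeR adjusted p under 0.05), where 8.28% of all tested genes rose and 5.23% fell in Runx2wt and 10.0% and 7.14% in Runx2ko. In Runx2wt Bnip3l, Pgf, Plin2, Stc2, Lox and Rnase4 rose and Hmox1 and Dusp1 fell. In Runx2ko Bnip3l, Ero1l, Bhlhe40, Pgf, Stc2, Rnase4, Wsb1 and Pnrc1 rose and Mif, Hmox1 and Dusp1 fell. Values follow for the 3 whose call held without each of the 9 libraries in turn in at least 1 group, and the calls of the others held in 3 to 7 of these 9 fits. Stc2, the secreted hormone stanniocalcin 2, was at 13.0, 15.9 and 13.2 CPM in BM progenitor, 61.5, 75.9 and 66.8 CPM in Runx2wt and 56.6, 121 and 53.7 CPM in Runx2ko, with log2 differences of 2.28 (SE 0.32, edgeR adjusted p = 0.00431) and 2.47 (SE 0.32, edgeR adjusted p = 0.0031). Bnip3l, the close relative of Bnip3, was at 32.1 to 36.5 CPM, 71.5 to 107 CPM and 84.5 to 128 CPM, with log2 differences of 1.40 (SE 0.22, edgeR adjusted p = 0.00674, and 0.0553 without BM progenitor replicate 3) and 1.53 (SE 0.22, edgeR adjusted p = 0.00464). Hmox1, haem oxygenase 1, a stress gene that several factors besides HIF-1 drive, fell in both groups: it was at 98.3 to 125 CPM in BM progenitor, 21.8 to 26.1 CPM in Runx2wt and 12.2 to 27.2 CPM in Runx2ko, with log2 differences of -2.20 (SE 0.28, edgeR adjusted p = 0.00332) and -2.38 (SE 0.29, edgeR adjusted p = 0.00236). The calls of Stc2 and Hmox1 in both groups, and of Bnip3l in Runx2ko, held without each of the 9 libraries in turn.

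Of 16 further glycolysis and glycogen genes tested, 3 rose in Runx2wt (Slc2a8, Ugp2 and Gbe1), 1 rose in Runx2ko (Slc2a8) and none fell, beside 8.28% and 10.0% of all tested genes that rose and 5.23% and 7.14% that fell. The lists of 9 genes below are read against the same shares. Slc2a8, a glucose transporter of intracellular membranes, had log2 differences of 2.03 (SE 0.45, edgeR adjusted p = 0.0216) and 1.69 (SE 0.45, edgeR adjusted p = 0.0321), and Ugp2, which makes UDP-glucose, had one of 0.89 in Runx2wt (SE 0.24, edgeR adjusted p = 0.0389). When each of the 9 libraries was left out, the Slc2a8 call held in 4 of 9 fits in either group and the Ugp2 call in 2 of 9, with adjusted p-values over all alternatives of up to 0.0922, 0.121 and 0.14. Gbe1, the glycogen branching enzyme, was at 52.6 to 58.2 CPM in BM progenitor and 194 to 293 CPM in Runx2wt, and at 34.6 CPM in Runx2ko replicate 1 against 299 and 307 CPM in the other Runx2ko libraries. Its log2 difference in Runx2wt was 2.22 (SE 0.62, edgeR adjusted p = 0.0442), and the adjusted p was 0.135, 0.14 and 0.143 without BM progenitor replicates 1, 2 and 3, 0.0963, 0.128 and 0.0753 without Runx2wt replicates 1, 2 and 3 and 0.0548 without Runx2ko replicate 2. Of 9 tested genes for pyruvate entry into mitochondria, Pdhx fell in both groups. Pdhx, which holds the dehydrogenase subunit E3 in the complex, was at 40.9 to 42.9 CPM in BM progenitor, 27.5 to 30.6 CPM in Runx2wt and 21.7 to 23.0 CPM in Runx2ko. In Runx2ko its log2 difference was -0.91 (SE 0.16, edgeR adjusted p = 0.00903), and the call held without each library in turn. In Runx2wt it was -0.55 (SE 0.16, edgeR adjusted p = 0.049), with an adjusted p of 0.125, 0.149 and 0.13 without BM progenitor replicates 1, 2 and 3 and 0.107, 0.151 and 0.0809 without Runx2wt replicates 1, 2 and 3. Of 9 further pentose phosphate genes tested, none passed in Runx2wt and 1, Pgls, rose in Runx2ko (log2 difference 0.51, SE 0.15, edgeR adjusted p = 0.0488), a call that held in 1 of the 9 fits that left out a library. In Runx2ko against Runx2wt, edgeR passed none of the genes of these 4 lists. DESeq2 passed 2 lower in the hypoxia list, where 0.111% of all genes it tested passed lower.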

How the data were processed

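RNA from 9 cultures in 3 groups of 3 was sequenced by QuantSeq, a 3′ tag method, per the labels' protocols. Raw counts for each Ensembl gene were deposited by the authors. FastQC, STAR and DESeq2 with build GRCm38 are named in the submitters' processing notes; the sources used here do not say how reads were counted, with or without strand and on which annotation, so overlapping, antisense and near-identical genes can share reads. A normalized table was not used. Symbols came from GENCODE vM21 of that build and matched 21042 of 21159 identifiers; 1188 genes had no count. Total counts per library were 3118594 to 5348177, so precision is lower for genes of few counts. Replicates differed by more than sampling noise. Chi-square per gene between pairs of replicates was 4.49 to 7.02 in BM progenitor, 14.9 to 23.06 in Runx2wt and 24.84 to 63.8 in Runx2ko.

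The test was that of edgeR 4.0.16, run under R 4.3.3 (quasi-likelihood F-test, TMM factors, filterByExpr, all 9 libraries sharing 1 estimate of the spread, Benjamini-Hochberg adjusted p under 0.05 over 11196 genes). CPM used TMM-scaled library sizes, standard errors came from the F statistic, and p-values measure the spread between the labelled replicates, pooled over all 9 libraries. Those of Runx2wt against BM progenitor thus also carry the spread of the Runx2ko libraries. Near-identical 3′ ends were other genes' annotated transcripts matching at 95% or more over 75 or more of the last 200 bases (blastn 2.17.0). Alternatives were DESeq2 1.42.0, its size factors (RLE) in edgeR, no filter, at least 10 counts in 3 libraries, only the compared libraries, a replicate block, and leaving out each library. Log2 differences are given for members that passed, for members with an absolute value of at least 1 and a group mean of at least 10 CPM, and for the highest-counted member of each role; other pathway genes that passed are named. The promoters shown, the other pathway genes given with values, and the P4ha1 adjusted p-values, were chosen after the values were seen. Members and lists were chosen with earlier results of these data known. On simulated counts of 11196 genes, Runx2wt against BM progenitor recovered 7.35%, 52.8% and 90% of 68, 72 and 60 genes changed by 2-, 4- and 16-fold. Runx2ko against BM progenitor recovered 19.2%, 46.3% and 94.5% of 73, 54 and 73 genes. All comparisons were simulated from the same mean and dispersion of each gene, so these shares do not rank them. Far fewer genes were changed than the 1513 and 1924 that passed in the data. The adjustment is stricter with few changed genes, so recovery in the data can be higher for the comparisons with BM progenitor. Between the transformed groups no gene passed in the data, so recovery there can be lower than simulated. Unchanged genes that were called numbered 14 in that simulation and 4 in each of the others.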

Additional observations from a re-analysis of the deposited data

How the results depend on the processing

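Counts of genes that passed depended on the libraries used. Over all genes, 1513 passed for Runx2wt against BM progenitor, 3679 with only the compared libraries, 922 with a replicate block and 209 to 3256 when each library was left out in turn. For Runx2ko against BM progenitor these counts were 1924, 1262, 1120 and 405 to 3311, and for Runx2ko against Runx2wt 0, with 48 by DESeq2 and 0 to 5 when each library was left out. Of the 38 genes, 2 to 11 rose in Runx2wt and 3 to 11 in Runx2ko when each library was left out; those that fell numbered 1 without a filter, 2 by DESeq2, 5 with only the compared libraries and 0 to 4 over the left-out libraries in Runx2wt, and 2 by DESeq2 and 0 to 2 in Runx2ko. No pairing of samples by replicate number was detected (correlations of deviations from -0.066 to 0.072), which with 3 libraries a group does not exclude it. With the replicate block 7 rose and 0 fell in Runx2wt, 7 rose and 1 fell in Runx2ko against BM progenitor, and 0 passed between the transformed groups. When each library was left out, 4, 15 and 6 of the 38 took the other sign in at least 1 fit in Runx2wt against BM progenitor, Runx2ko against Runx2wt and Runx2ko against BM progenitor; without Runx2ko replicate 1 these were none, then Egln3, G6pdx and Pgd, then Slc2a3, Hk2 and Eno3. Among them, with log2 differences given here, were Slc2a3 in Runx2ko against BM progenitor (-1.14 without Runx2ko replicate 1, up to 1.82), Taldo1 in Runx2wt (-0.02 without Runx2wt replicate 2, up to 0.34), and, between the transformed groups, Taldo1 (-0.04 without Runx2wt replicate 3, up to 0.32) and Hif1a (-0.26 to 0.06, the latter without Runx2wt replicate 2). Pdk3 in Runx2ko against BM progenitor (-1.04 to 0.00, the latter without Runx2ko replicate 3) and the median of the 38 between the transformed groups (-0.13 to 0.00, the latter without Runx2wt replicate 2) came to about 0. No member that took the other sign was called in the fit of all 9 libraries. Beyond left-out libraries, the calls lost among the 38 were Hk1 in Runx2wt (adjusted p = 0.0852 without a filter, 0.0808 with the replicate block), Pfkfb3 in Runx2wt (0.0543 with the block), Hif1a in Runx2ko (0.0726 and 0.066) and Pdk1 in Runx2ko (0.0701 with only the compared libraries); outside the set, Pdhx in Runx2wt had 0.171 without a filter, 0.0503 with at least 10 counts in 3 libraries and 0.0929 with the block, and Gbe1 0.07 and Ugp2 0.0571 with the block. All 9 libraries shared 1 estimate of the spread, so leaving out a Runx2ko library also changes the adjusted p of Runx2wt against BM progenitor. Without Runx2ko replicate 1, Slc16a3 in that comparison kept its log2 difference of 1.71, with an edgeR adjusted p of 0.000182 in place of 0.0525. Each left-out fit also had fewer samples, and the cause of the shifts was not tested further. In the simulations, where few genes were changed, most 2-fold differences in single genes were not recovered at 3 libraries a group.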
